A study of Mus musculus with 55 samples.

Results

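Sftpa1 encodes surfactant protein A, and its promoter was followed in the maturing mouse liver, an organ that is not known as a site of surfactant production. The locus was chosen by its measured methylation, which rose in these samples between late gestation (E18.5, E for embryonic day) and 6 mo of age, so the values at those ages are given as a description and were not tested. It was 1 of 17 loci measured by locus-specific bisulfite sequencing (LSBS), with 4 of the 166 CpGs of that assay. Reduced representation bisulfite sequencing (RRBS), which reads cytosines near the CCGG cutting sites of the enzyme MspI across the genome, added 2 of its 271325 CpGs in the stretch from 5000 bp upstream of the Sftpa1 start site to the end of the gene.

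The study asked how far and when DNA methylation changes as the liver matures after birth. The P1 RRBS libraries were grouped by their age label, although their titles also contain 6Mo, which the labels do not explain. All samples were livers of C57BL/6 mice with no treatment or genetic change in the labels. LSBS sequences PCR amplicons of bisulfite-treated DNA, and it was applied to 31 livers, 5 at E18.5, 5 at postnatal day 1 (P1), 4 at P5, 4 at P10, 3 at P15, 5 at P20 and 5 at 6 mo, of which 16 came from females and 15 from males. RRBS was applied to 24 livers, 5 at E18.5, 9 at P1 and 10 at 9 wk. The labels give no sex for the RRBS livers. The study's methods describe the 9 wk RRBS mice as male, so sex may differ between the RRBS ages. They also name a chow with coconut oil for the first RRBS mice and no diet for the LSBS mice. DNA came from whole liver, which around birth holds many blood-forming cells beside hepatocytes, so a change of methylation within a cell type and a change in the mixture of cell types cannot be told apart in any value below. No RNA values were used here, so neither the level of Sftpa1 RNA nor marker genes of the tissue could be set beside the methylation. Values of no single LSBS liver could be followed from CpG to CpG at most ages, because the table gives age and sex but no liver name.

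Surfactant protein A is a collectin, a secreted protein with a collagen-like stem and a sugar-binding head that coats microbes. It is made mainly by type II cells of the lung alveolus and by club cells of the airways. Type II cells also make the surfactant proteins B, C and D. Methyl groups at the CpGs of a promoter are often found at genes that a tissue does not use, and promoters with few CpGs tend to carry them in many tissues.

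In mm9, Sftpa1 (GENCODE) lies on the plus strand of chromosome 14 from 41945071 to 41949741. The 4 LSBS CpGs were at 41944972, 41944990, 41945059 and 41945081. The first 3 lay 99, 81 and 12 bp upstream of the start site, and the last lay 10 bp downstream of it in the untranslated first exon, which ends at 41945121. They are called the −99, −81, −12 and +10 CpGs here. The stretch that holds them, chr14:41944952-41945100 on the plus strand of mm9, is shown because every LSBS value below belongs to 1 of its 4 CpGs, which are in capitals.
Sftpa1 promoter: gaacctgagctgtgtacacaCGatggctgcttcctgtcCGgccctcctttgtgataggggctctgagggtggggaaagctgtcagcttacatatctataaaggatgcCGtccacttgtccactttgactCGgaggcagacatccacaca

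The 2 RRBS CpGs lay 3838 and 3826 bp upstream of the start site, at 41941233 and 41941245, outside any annotated gene. Their surroundings, chr14:41941213-41941266 on the plus strand of mm9, are shown with both CpGs in capitals, the first of them inside a CCGG site.
Sftpa1 upstream: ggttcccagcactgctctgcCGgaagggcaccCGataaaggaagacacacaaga

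The gaps between neighbouring LSBS CpGs were 18, 69 and 22 bp, so the 4 CpGs formed a distal and a proximal pair. The TATA box sequence TATAAA began 24 bp upstream of the GENCODE start site and 12 bp before the −12 CpG, between the pairs. In the RefSeq promoter table (GRCm38.p6, 250 bases before to 50 after each start), the Sftpa1 entry matched mm9 letter for letter with its start 6 bp downstream of the GENCODE start. TATAAA or its reverse complement occurred in 13.6% of the 32851 promoters of that table. CTCAAG, searched as a short form of sites reported for the lung regulator Nkx2-1, occurred 1 time, 166 bp before the RefSeq start, and in 15.9% of all promoters on either strand. The forkhead core TGTTTAC was not in the Sftpa1 entry on either strand, while 3.65% of all promoters held it. The E-box CACGTG, in 7.15% of promoters, and the CREB-type core TGACG, in 20.8%, were not in it either. None of these 5 motifs overlapped another in the entry, and a match is only a match of letters.

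The entry held 5 CpGs, of which 4 were measured by LSBS, against a median of 7 over all promoters of the table, and 56.4% of promoters had more. From 5000 bp upstream to the gene end there were 90 CpGs and 11 CCGG sites. The −81 CpG lies in a CCGG site but was not among the RRBS CpGs, so no CpG was measured by both assays.

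**Figure D1:**
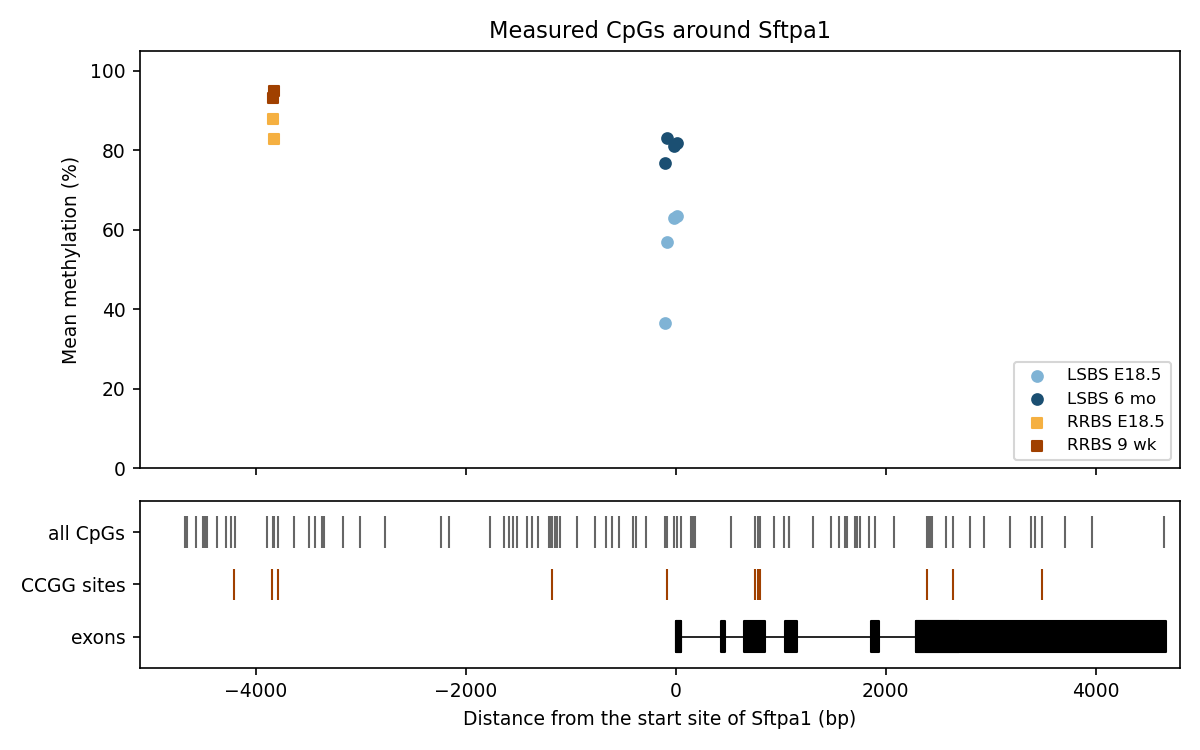
Mean methylation (%) of the 6 measured CpGs against distance from the Sftpa1 start site (bp), at the youngest and the oldest age of each assay (circles LSBS, squares RRBS), above the positions of all 90 CpGs, the 11 CCGG sites and the exons. The 4 LSBS CpGs cluster at the start site and the 2 RRBS CpGs lie 3838 and 3826 bp upstream, at higher levels.

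Before birth the promoter was partly methylated, and least so at its outermost measured CpG. At E18.5 the −99 CpG was methylated at 35.4 and 37.9% in the 2 females and at 33.9, 37.2 and 38.8% in the 3 males. The −81 CpG was at 52.9 and 58.5% in the females and at 53.7, 59.3 and 59.8% in the males. Every E18.5 value of the −99 CpG was below every value of the −81 CpG.

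The proximal pair was the more methylated at this age. The −12 CpG was at 62.7 and 64.2% in the E18.5 females and at 60.0, 63.0 and 64.5% in the males. The +10 CpG was at 63.4 and 63.9% in the females and at 61.1, 64.2 and 65.0% in the males. These 2 CpGs, 22 bp apart on either side of the start site, overlapped in their values.

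At 6 mo all 4 CpGs were heavily methylated and much closer together. The −99 CpG was then at 74.1 and 77.2% in the 2 females and at 76.2, 77.7 and 79.2% in the 3 males. The −81 CpG was at 80.02 and 84.5% in the females and at 81.2, 84.3 and 84.7% in the males. The values of the −99 CpG still lay below all values of the −81 CpG.

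The proximal pair again had overlapping values at 6 mo. The −12 CpG was at 79.6 and 84.0% in the females and at 79.1, 80.1 and 82.4% in the males, and the +10 CpG at 82.0 and 82.8% in the females and at 80.6, 80.8 and 83.1% in the males. At each of the 4 CpGs the lowest value at 6 mo was above the highest at E18.5, which was so at 16.9% of the 166 LSBS CpGs, and this contrast chose the locus. The 166 include the amplicons of Srebf1 (22 CpGs), Nfkb1 (19), Nr1h2 (17), Srebf2 (15), Igf2 (11), Pck2 (10) and Nfkb2 (2). Those loci were nearly unmethylated, with means of at most 3.65% at every age, and they count in every share of the LSBS CpGs given here.

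Means rose from 36.7% ± 1.99 (SD, n = 5) at E18.5 to 76.9% ± 1.91 (SD, n = 5) at 6 mo at the −99 CpG, a difference of 40.2 points. The −81 CpG went from 56.9% ± 3.30 to 83.0% ± 2.17 (SD, n = 5 each), or 26.1 points. The −12 CpG went from 62.9% ± 1.79 to 81.0% ± 2.07 and the +10 CpG from 63.5% ± 1.45 to 81.9% ± 1.11 (SD, n = 5 each), 18.2 and 18.4 points. The CpG that started lowest thus had the largest difference of the 4, and the spread between the lowest and the highest CpG mean narrowed from 26.9 points at E18.5 to 6.08 points at 6 mo.

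The narrowing ran through all 7 labelled ages, with the LSBS values at 9 wk left out. The gap between the lowest and the highest CpG mean was 24.2 points at P1, 21.6 at P5, 12.4 at P10, 9.02 at P15 and 7.49 at P20. The mean of the 4 CpGs was 55.0% at E18.5, 60.0% at P1, 61.0% at P5, 68.3% at P10, 71.8% at P15, 77.9% at P20 and 80.7% at 6 mo. Of the whole difference between E18.5 and 6 mo, 23.4% had been reached at P5 and 89.4% at P20, so most of it fell in the 15 days between them.

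**Figure D2:**
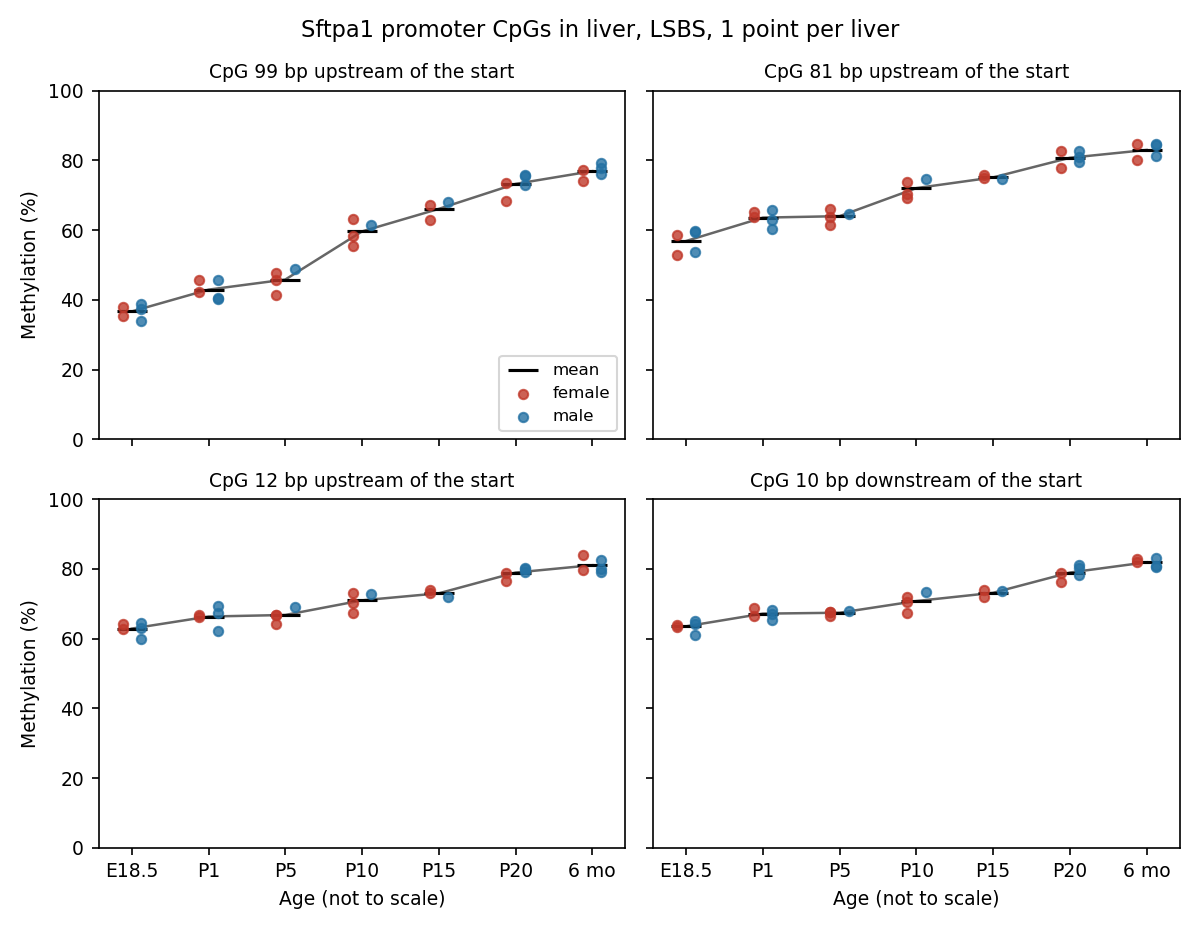
LSBS methylation (%) at the 4 Sftpa1 promoter CpGs by age, 1 point per liver (red female, blue male), with the mean of each age as a black bar joined by a line, ages not to scale. The line of the −99 CpG climbs from 36.7% at E18.5 to 76.9% at 6 mo and is steepest between P5 and P10, while the proximal pair starts at 62.9 and 63.5% and climbs less.

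The ages from P1 to P20 lie inside the interval that chose the locus but were not themselves the contrast, and they were tested with limma over 21 livers. Each of the 4 CpGs differed among these 5 ages (limma F test, Benjamini-Hochberg adjusted p = 1.78e-10, 2.52e-09, 7.17e-07 and 4.00e-08 from −99 to +10), as did 41.6% of the 166 LSBS CpGs. Since a locus picked for a rise over the whole interval is likely to rise within it, these tests are not independent evidence that the promoter gained methylation, and they serve to size and time the change. The 4 CpGs lie within 110 bp and were read in the same livers. Calls at all 4, here and in the steps below, are thus not 4 separate results.

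Between P1 and P20 all 4 CpGs rose (limma, Benjamini-Hochberg adjusted p up to 0.1 over all LSBS CpGs and a difference over 5 points), against 10.2% of the 166 CpGs called higher. No CpG of the nearly unmethylated loci was called, so the share called higher was larger among the CpGs of the other loci. Beside Sftpa1, gains were called at 5 of 5 CpGs of Nr1i2, 6 of 10 of Irs1 and 2 of 11 of Lep, and at no other locus. Counting losses too, 27.7% of the 166 CpGs were called. At P1 the −99 CpG was at 42.4 and 45.6% in the 2 females and at 40.3, 40.6 and 45.6% in the 3 males, and at P20 at 68.3 and 73.6% in the females and at 72.8, 75.6 and 75.8% in the males. The gain was 30.3 points (SE 1.85, adjusted p = 4.09e-11), and more than 20 points separated the highest P1 liver from the lowest P20 liver. The −81 CpG went from 63.9 and 65.2% in the P1 females and 60.4, 62.7 and 65.7% in the males to 77.8 and 82.7% in the P20 females and 79.6, 80.9 and 82.6% in the males, a gain of 17.2 points (SE 1.25, adjusted p = 6.70e-10).

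The proximal pair gained less. At P1 the −12 CpG was at 66.3 and 66.7% in the females and at 62.1, 67.2 and 69.3% in the males, and at P20 at 76.6 and 78.7% in the females and at 79.1, 79.9 and 80.3% in the males, a gain of 12.6 points (SE 1.30, adjusted p = 1.05e-07). The +10 CpG was at 66.5 and 68.8% in the P1 females and at 65.3, 67.0 and 68.2% in the males, and at 76.4 and 78.8% in the P20 females and 78.2, 80.2 and 81.0% in the males, a gain of 11.8 points (SE 1.00, adjusted p = 6.47e-09). At none of the 4 CpGs did the P1 and P20 livers overlap, which with the later age higher was so at 12% of the LSBS CpGs.

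The gains of the 4 CpGs were not equal. Because livers could not be joined between CpGs, each difference between gains is given with the widest standard error that any matching of the livers allows, and an interval of 2 such errors either side. The −99 CpG gained 13.2 points more than the −81 CpG (interval 6.96 to 19.4), 17.7 more than the −12 CpG (11.4 to 23.99) and 18.53 more than the +10 CpG (12.8 to 24.2). The −81 CpG gained 5.37 points more than the +10 CpG (0.865 to 9.88) and 4.54 more than the −12 CpG, where the interval of −0.56 to 9.64 held 0. The −12 and +10 CpGs differed by 0.832 points (−3.77 to 5.44).

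A CpG that starts lower has more to gain in points, so the gains were also read on other scales. At the −99 CpG, 57.1% of the DNA was unmethylated at P1 and 26.8% at P20, which left 46.9% of the P1 share. The shares left were 52.9% at the −81 CpG, 62.6% at the −12 CpG and 64.1% at the +10 CpG. On the logit scale (the log2 of methylated over unmethylated where 1 unit is a doubling of the odds), the gains were 1.87, 1.27, 0.93 and 0.88. The order from the outermost CpG to the innermost was thus the same on these 3 scales, and the differences between CpGs were compared in points only.

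The first days after birth brought little change at the promoter. Between P1 and P5 no CpG of Sftpa1 was called, and no gain was called at any of the 166 LSBS CpGs (0%), while 8.43% were called when losses were counted too. The 3 females at P5 were at 41.3, 45.6 and 47.5% at the −99 CpG and the male at 48.8%, against 40.3 to 45.6% at P1. The estimate at that CpG was 2.90 points (SE 1.96, adjusted p = 0.669, limma), and those at the other 3 were 0.420 (SE 1.33), 0.452 (SE 1.38) and 0.259 points (SE 1.06), each with an adjusted p of 0.984. The P1 and P5 livers overlapped at all 4 CpGs, and livers stood apart with P5 higher at 1.81% of the LSBS CpGs.

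Between P5 and P10 the distal pair rose and the proximal pair was not called. The −99 CpG reached 55.5, 58.3 and 63.0% in the 3 females at P10 and 61.5% in the male, a rise of 13.8 points (SE 2.07, adjusted p = 2.28e-05, limma), the largest of its steps. The −81 CpG went from 61.5, 63.9 and 66.0% in the P5 females and 64.6% in the male to 69.2, 70.4 and 73.9% in the P10 females and 74.5% in the male, a rise of 8.04 points (SE 1.40, adjusted p = 0.000129, limma). No P10 liver overlapped with a P5 liver at either CpG of the distal pair, as at 15.1% of the LSBS CpGs with P10 higher, and gains were called at 6.63% of them in this step.

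At the proximal pair this step was smaller. The −12 CpG was at 64.3, 66.8 and 66.8% in the P5 females and 69.2% in the male, and at 67.4, 70.3 and 73.2% in the P10 females and 72.9% in the male. The difference of 4.19 points (SE 1.45) had a limma adjusted p of 0.0371 but missed the minimum of 5 points. The +10 CpG was at 66.6, 67.6 and 67.7% in the P5 females and 67.8% in the male, and at 67.3, 70.6 and 71.9% in the P10 females and 73.2% in the male, a difference of 3.35 points (SE 1.12, adjusted p = 0.0303, limma) that missed it too. Without the first P10 value listed the −12 CpG was called as well (5.37 points, adjusted p = 0.00757, limma), which made 3 of 4. Values of the P5 and P10 livers overlapped at both.

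Between P10 and P15, where only 3 livers stand at the later age, the −99 CpG was called alone. It was at 62.9 and 67.1% in the 2 females at P15 and at 68.1% in the male, 6.46 points above P10 (SE 2.23, adjusted p = 0.0462, limma). This was the single gain called among all LSBS CpGs in this step (0.602%, or 19.3% with losses), the P10 and P15 ranges overlapped, and the call was lost without either of 2 of the 4 P10 values or 2 of the 3 P15 values listed (adjusted p = 0.104 to 0.180 without each). The −81 CpG stood at 74.9 and 75.7% in the P15 females and 74.6% in the male, 3.07 points higher than at P10 (SE 1.51, adjusted p = 0.193, limma), and it alone had no overlap between the ages, as did 9.04% of the LSBS CpGs with P15 higher. The proximal pair was at 73.1 and 73.9% in the females and 71.9% in the male at the −12 CpG, and at 71.9 and 73.8% in the females and 73.6% in the male at the +10 CpG, with differences of 2.02 (SE 1.57, adjusted p = 0.4295) and 2.36 points (SE 1.21, adjusted p = 0.2096) by limma.

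Between P15 and P20 all 4 CpGs rose, against 7.23% of the LSBS CpGs called higher and 22.9% called in either direction. The estimates lay close together at 7.16 points (SE 2.13) for the −99 CpG, 5.63 (SE 1.45) for the −81 CpG, 5.95 (SE 1.4998) for the −12 CpG and 5.81 (SE 1.16) for the +10 CpG, with limma adjusted p of 0.0213, 0.00922, 0.00899 and 0.00190. At each CpG the lowest P20 liver was above the highest P15 liver, which was so at 8.43% of the LSBS CpGs. The call at the −99 CpG was lost without the third P15 value listed (5.60 points, adjusted p = 0.122, limma).

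**Figure D3:**
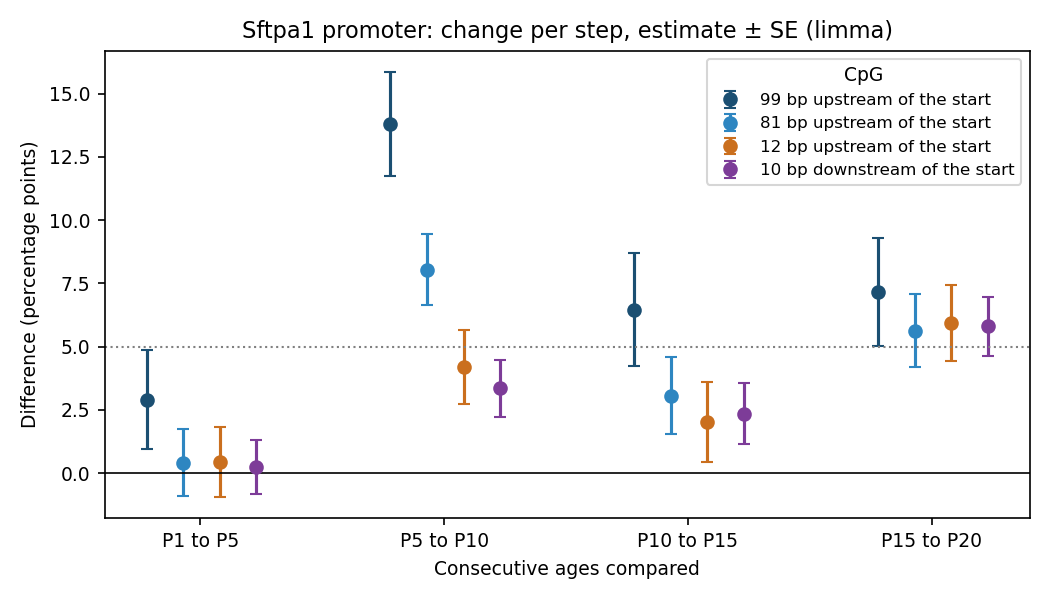
Difference in methylation (percentage points) between consecutive ages from P1 to P20 at the 4 Sftpa1 promoter CpGs, as limma estimates with bars of 1 SE, and a dotted line at 5 points. The distal CpGs stand apart at 13.8 and 8.04 points in the step from P5 to P10, whereas the 4 CpGs lie between 5.63 and 7.16 points in the step from P15 to P20.

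The steps at either end of the series are given without a test. From E18.5 to P1 the means differed by 6.26, 6.70, 3.45 and 3.63 points from the −99 to the +10 CpG, and the livers of these ages did not overlap at 3 of the 4 CpGs, the −12 CpG being the exception, with P1 higher and apart at 15.7% of the LSBS CpGs. From P20 to 6 mo they differed by 3.65, 2.24, 2.11 and 2.95 points, and the livers overlapped at all 4, with 6 mo higher and apart at 1.2% of the LSBS CpGs.

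The largest step also differed along the promoter. At the distal pair the step from P5 to P10 made up 34.3% (−99) and 30.8% (−81) of the whole difference between E18.5 and 6 mo. At the proximal pair the largest share fell between P15 and P20, with 32.7% at the −12 CpG and 31.6% at the +10 CpG. Whether the timing differed between the pairs was not tested.

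Over the 21 livers from P1 to P20, methylation rose with age at each CpG, with Spearman's rho of 0.950 at the −99 CpG, 0.925 at the −81 CpG, 0.895 at the −12 CpG and 0.882 at the +10 CpG. For each, p was 1e-05 in a permutation test, the smallest that the number of resamples can give. Like the F tests, these values come from inside the interval that chose the locus. They describe the course of the change and are not independent evidence of a gain.

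Spread between livers of an age was small beside these changes. The SD lay between 0.530 points (−81 CpG at P15, n = 3) and 3.37 points (−99 CpG at P10, n = 4) over the 28 combinations of CpG and age. The single males at P5, P10 and P15 are the only LSBS livers whose 4 values can be joined. The P5 male had 48.8, 64.6, 69.2 and 67.8% from the −99 to the +10 CpG, the P10 male 61.5, 74.5, 72.9 and 73.2%, and the P15 male 68.1, 74.6, 71.9 and 73.6%. In each of the 3 the −99 CpG was the lowest, and the other 3 CpGs lay within 5 points of one another.

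No difference between the sexes was detected at the Sftpa1 promoter. Over all 31 livers, with age as a factor, females were lower than males by 1.69 points at the −99 CpG (95% interval of female minus male −3.68 to 0.31), and the difference was −0.76 points at the −81 CpG (−2.55 to 1.03), −0.40 at the −12 CpG (−2.01 to 1.21) and −0.54 at the +10 CpG (−1.72 to 0.64). The adjusted p values ran from 0.692 to 0.907 (limma). No LSBS CpG was called between the sexes (0%), and 3.61% had an unadjusted p up to 0.05, none of them in Sftpa1. None of these intervals reached 5 points in either direction.

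Of the other LSBS loci, 3 followed the age profile of Sftpa1 most closely by Pearson's r over the 7 age means, which come from the same set of livers. The means of Irs1, an adaptor of insulin signalling measured within the gene, had r = 0.971 and lay higher, from 86.3% at E18.5 to 95.6% at 6 mo. Those of the promoter of Nr1i2, which encodes the xenobiotic receptor PXR, had r = 0.942 and went from 76.7% to 94.4%. The amplicon at the promoter of the imprinted growth factor gene Igf2 had r = 0.902 but moved only between 1.57 and 3.65%. The profile least like that of Sftpa1 was that of the promoter of Acsl1, which encodes an enzyme that activates fatty acids, with r = −0.979 and a fall from 53.9% to 19.2%. Sftpa1 and Acsl1 thus started within 2 points of each other at E18.5 and stood more than 60 points apart at 6 mo.

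Some 3.8 kb upstream, where RRBS read 2 CpGs of Sftpa1, methylation was already high before birth. At E18.5 the CpG 3838 bp upstream was at 80.5, 88.1, 88.7, 89.4 and 92.9% in the 5 livers, and the CpG 3826 bp upstream at 78.6, 80.5, 82.1, 83.9 and 89.4%. At P1 the first ran from 70.6% (median 91.7%) to 100% in 9 livers and the second from 76.5% (median 85.4%) to 93.5%. All of these lay above every LSBS value of the promoter at E18.5 or P1, though no CpG of Sftpa1 was read by both assays, so an offset between them was not measured at this gene.

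Neither upstream CpG was called between E18.5 and P1. The means were 87.9% ± 4.52 (SD, n = 5) and 90.5% ± 8.74 (SD, n = 9) at the first, a difference of 2.57 points (SE 4.14, adjusted p = 0.782, limma over all RRBS CpGs). They were 82.9% ± 4.12 (SD, n = 5) and 84.9% ± 6.92 (SD, n = 9) at the second, a difference of 2.04 points (SE 3.64, adjusted p = 0.806, limma). Of the RRBS CpGs tested in this comparison 0.54% were called higher and 0.0119% lower. Both differences changed sign, to −2.53 and −2.66 points, when each library was divided by its mean over CpGs above 80% on average. The means of both CpGs were themselves above 80%, so this scaling by its make-up takes out any change they share with such CpGs.

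At 9 wk, 6 of the 10 libraries had a value at these CpGs. The first CpG was at 70, 92.9, 95.2, 100, 100 and 100%, and the second at 85.7, 90.0, 92.9, 100, 100 and 100%. The second was thus higher at 9 wk (94.8% ± 6.17, SD, n = 6) than at E18.5 by 11.9 points, with 1 E18.5 library inside the range of the 9 wk libraries. The first was at 93.0% ± 11.7 (SD, n = 6), 5.11 points above E18.5, with its lowest 9 wk library below all of those at E18.5.

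With values in 73.3% of the libraries compared, both fell short of the 80% required for the test across all CpGs. An exact two-sided permutation test of each CpG on its own gave p = 0.394 for the first and 0.0108 for the second between E18.5 and 9 wk, and 0.632 and 0.0178 between P1 and 9 wk, without adjustment. With the minimum lowered to 70%, a choice made after seeing the data, the second CpG was called (limma adjusted p = 0.0124) and the first was not (adjusted p = 0.401). The second was also called without the 3 libraries of 9 wk that were deposited later than the other 7 (10.8 points, limma adjusted p = 0.0230). In the RRBS data as a whole 58.5% of CpGs tested were called higher at 9 wk than at E18.5 and 36.1% higher than at P1. After scaling of each library to its highly methylated CpGs, the differences from E18.5 to 9 wk were −5.98 points at the first CpG and 1.12 at the second, and those from P1 to 9 wk were −3.45 and 3.78 points. Here too, change shared with other highly methylated CpGs is taken out by the make-up of the scaling.

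**Figure D4:**
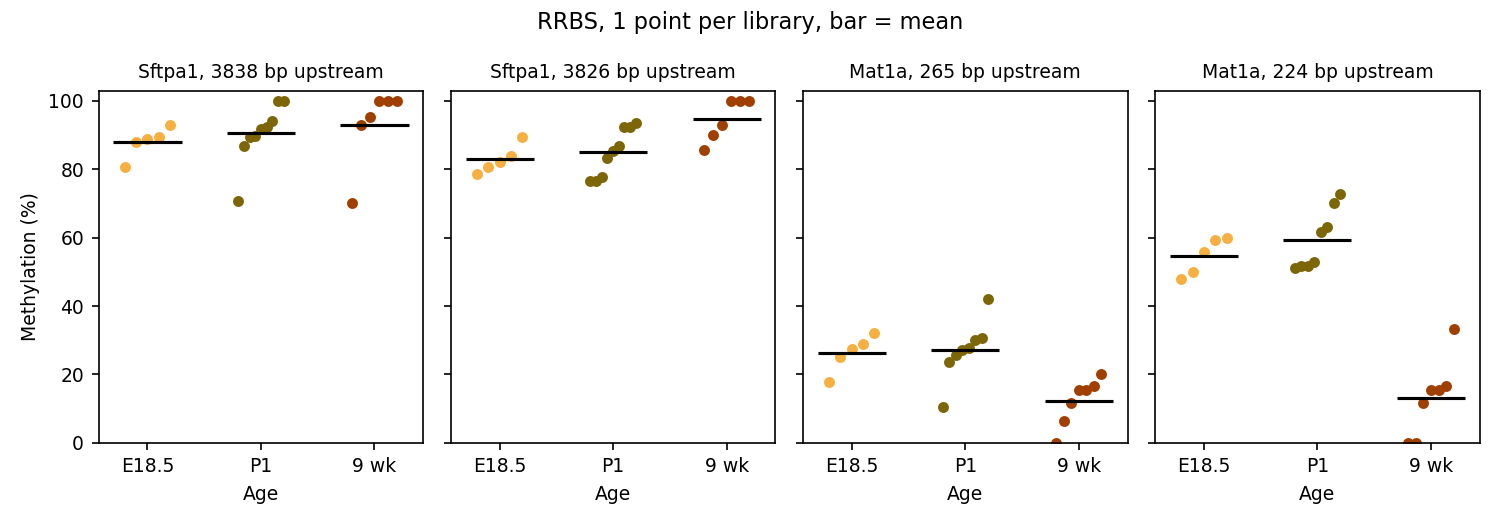
RRBS methylation (%) by age at the 2 CpGs upstream of Sftpa1 and at the 2 nearest RRBS CpGs beyond them, 1 point per library with the mean as a bar. The Sftpa1 CpGs stay at or above 70% in every library with a value, while the CpG 224 bp upstream of the Mat1a start drops from a mean of 54.6% at E18.5 to 13.2% at 9 wk.

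The next RRBS CpGs on that side of Sftpa1 belong to the promoter of Mat1a, which encodes the liver enzyme that makes the methyl donor S-adenosylmethionine. They lay 26666 and 26625 bp upstream of the Sftpa1 start, 265 and 224 bp upstream of that of Mat1a. They fell between E18.5 and 9 wk by 14.04 points (SE 3.801, adjusted p = 0.00634) and 41.4 points (SE 5.08, adjusted p = 1.51e-05, limma), as did 6.46% of RRBS CpGs. On the other side of the Sftpa1 promoter the nearest RRBS CpG, at 42020842 outside any annotated gene, rose by 23.1 points (SE 3.403, adjusted p = 4.52e-05), and the next, at 42150769 and likewise outside any annotated gene, differed by 4.06 points (SE 4.67, adjusted p = 0.463, limma). The neighbourhood of Sftpa1 on chromosome 14 thus held CpGs that rose and CpGs that fell in the same livers, and the 3 calls kept their direction after scaling (−16.6, −46.1 and 13.1 points).

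The surfactant genes of the list set up for this comparison were read in the RRBS data as well. Of the 13 genes for surfactant proteins and their handling, 9 had a tested CpG between E18.5 and 9 wk, and Sftpa1, Sftpb, Sftpd and Ctsh had none. Of 92 tested CpGs 46 rose and 0 fell, where 58.5% of all CpGs tested were called higher and 6.46% lower, with a median difference of 7.93 points against 9.68 points over all CpGs tested. Sftpc, the surfactant protein gene with the most data, had 8 of 9 CpGs called higher, beside that share of 58.5%, and a mean change of 11.2 points, from 82.5 to 93.6%. With each library scaled to its highly methylated CpGs, the median difference over all CpGs tested dropped from 9.68 to 0.524 points. Of the 249731 CpGs tested with scaling, 43054 were called higher and 33555 lower, so that 56.2% of calls were gains. The list had 21 gains and 15 losses (58.3% gains) with a median of 3.60 points, and the mean change of Sftpc was 0.478 points.

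The largest mean changes on this list were in Csf2rb, a receptor chain for the growth factor that governs surfactant clearance, with 38.1 points over 5 CpGs. Lpcat1, an enzyme of surfactant lipid synthesis, followed with 16.2 points over 12, Slc34a2, a phosphate carrier of type II cells, with 14.04 points over 14, and Napsa, a protease that processes surfactant proteins, with 11.5 points over 5. After scaling these 4 changes were 31.6, 10.3, 4.73 and 7.68 points. Csf2rb is also used by blood cells, and its part in the mixture of cell types was not tested.

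Among 12 lung epithelial genes, 86 of 156 tested CpGs rose and 12 fell, where 58.5% and 6.46% of all CpGs tested did so. The median was 9.98 points. After scaling 36 rose and 23 fell (61.0% gains, against 56.2% over all CpGs tested), with a median of 1.84 points. The largest mean changes were 25.1 points over 14 CpGs in Foxa1, a factor of lung and liver alike, 18.9 over 2 in the club cell gene Scgb1a1, 15.8 over 17 in the mucin gene Muc1 and 12.7 over 6 in Foxa2, or 23.1, 8.83, 7.75 and 10.5 points after scaling. Among the 7 collectins, the family of Sftpa1, 5 of 11 tested CpGs rose and 3 fell (1 and 3 after scaling), beside the shares of 58.5% and 6.46% over all CpGs tested without scaling. They lay in Mbl2, Colec10 and Colec11 only, since Sftpa1, Sftpd, Mbl1 and Colec12 had no tested CpG. Colec10, a collectin made in liver, changed by 14.4 points over 3 CpGs and Colec11 by −0.600 over 7, while the single CpG of Mbl2, the serum mannose-binding lectin gene of the liver, fell by 17.1 points. After scaling these differences were 4.17, −8.55 and −23.2 points, and the collectin median went from 3.54 to −6.74 points. Between E18.5 and P1 no CpG of the surfactant or collectin lists was called and 3 of the lung epithelial list rose, where 0.552% of all CpGs tested were called. Those 3 calls fell to 0 on the logit scale, with scaling, at an adjusted p up to 0.05, and without any 1 of the 5 E18.5 libraries or of P1 libraries 6, 8 and 9. Over the 3 lists together 152 of 259 tested CpGs were called between E18.5 and 9 wk and 108 of 230 between P1 and 9 wk. Of all CpGs tested, 64.9% and 43.1% were called in either direction. The count of 152 fell to 99 without E18.5 library 1 and to 95 without library 4. It was similarly low without E18.5 library 2, 3 or 5.

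**Figure D5:**
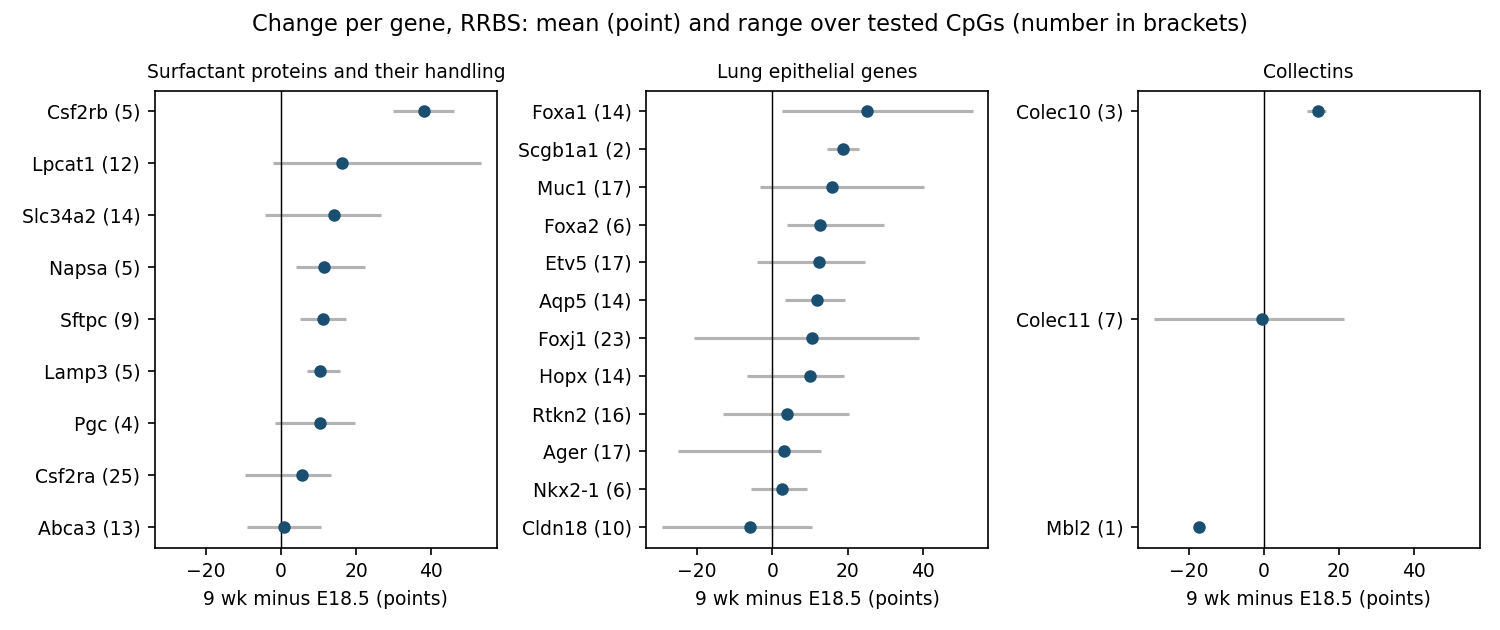
Change in RRBS methylation from E18.5 to 9 wk (percentage points) per gene of the 3 lists, as the mean over its tested CpGs (point) and their range (line), with the number of CpGs in brackets. Without scaling of libraries, means of the 9 surfactant genes lie above 0 up to 38.1 points for Csf2rb (with scaling those of Abca3 and Lamp3 lie below 0), whereas the collectins run from −17.1 points for Mbl2 to 14.4 points for Colec10.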

How the data were processed

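The authors deposited LSBS values as percent methylation per CpG and liver, from bisulfite amplicon reads, and the RRBS table as a fraction methylated per CpG and library at mm9 positions, multiplied here to percent. The submitters' processing notes name Bismark 0.7.6 and Bowtie2. The study's methods state minimum reads for RRBS (10 per CpG) and for LSBS (100), the latter for a set of loci that differs from the deposited table. Read counts were not used, so depth per value is unknown and single values carry no interval. The authors' p-values, q-values and differences were not used, nor were the mm10 copy of the RRBS values and 830 LSBS values at 9 wk that match no labelled sample. Those LSBS values are 5 per CpG, and the study's methods list 5 LSBS livers of that age. 0 columns of samples outside the series were found.

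Ages came from the labels. LSBS was fitted with limma 3.58.1 in R 4.3.3 (lmFit, eBayes) on P1 to P20 in 1 fit, and RRBS on the 2 ages compared. RRBS CpGs entered the test with values in at least 80% of libraries, unless all values were below 10%. CpGs were called at a Benjamini-Hochberg adjusted p up to 0.1 over all CpGs of the assay and a difference over 5 points. The labels do not say that livers came from separate litters, so p-values measure the spread between these livers. Sequences were read from mm9, other steps used Python 3.11.15, pandas 2.3.3, numpy 2.4.6 and matplotlib 3.10.9, and the fits were tested on simulated data. Named are the 4 LSBS CpGs, the RRBS CpGs from 5000 bp upstream of the start to the gene end and the 2 nearest on each side, the 3 LSBS loci most like Sftpa1 and the 1 least like it, and up to 4 genes per list with the largest mean change; other names, such as Sftpc and genes without a tested CpG, were added after their values were seen. The members, lists and tests were chosen with earlier results of these data known.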

Additional observations from a re-analysis of the deposited data

Results flagged for a closer look

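Among 30 groups of 4 to 9 values at the Sftpa1 CpGs, 3 held a value far from the others, by a rule that flags about 1 in 20 groups of normally distributed values. At the +10 CpG, 1 of the 4 P5 livers had 66.6%, below the others at 67.6 to 67.8%, in a group with an SD of 0.573 points. At the RRBS CpG 3838 bp upstream, 1 of 9 P1 libraries had 70.6%, and 1 of 6 libraries at 9 wk had 70%, below the others of their age. At this CpG 2 of the P1 and 3 of the 9 wk libraries stood at the ceiling of 100%, so the rate of 1 in 20 need not hold there. The depth behind these values is unknown.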

How the results depend on the processing

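The gain from P1 to P20 was called at all 4 Sftpa1 CpGs under every alternative tried (all 7 ages or 2 ages in the fit, sex as a term, logit scale, unmoderated variance, permutation, Bonferroni, adjusted p up to 0.05, single values left out). The P10 to P15 count of 1 fell to 0 with only the 2 ages, with the permutation test and with Bonferroni (0 to 1 with 1 value left out), and the P15 to P20 count of 4 fell to 1 with Bonferroni (3 to 4 with 1 left out). With 1 value left out, P1 to P5 differences changed sign, running from −0.61 to 1.27 points at the −12 CpG, −0.38 to 1.25 at the −81 CpG and −0.20 to 0.66 at the +10 CpG, none called. Left-out values are the n-th listed per CpG, not 1 liver. RRBS calls over the 3 lists from E18.5 to 9 wk, 152, fell to 28 with values in every library required and to 99 with libraries scaled to their highly methylated CpGs (95 to 135 with 1 library left out). Those from E18.5 to P1, 3, became 1 with complete values and 0 on the logit scale, with scaling and at an adjusted p up to 0.05 (0 to 4 with 1 left out), and those from P1 to 9 wk, 108, became 17 with complete values (100 to 130). Under scaling the upstream CpGs differed by −2.53 and −2.66 points between E18.5 and P1. Complete values leave fewer CpGs to test. For the other lost calls the cause was not tested. No paired analysis was possible because the LSBS rows carry no replicate number and the replicate numbers used here follow accession order. Depth was unknown, and groups of 3 to 5 livers and RRBS gaps at 9 wk limit the precision.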
